A study of Mus musculus with 13 samples.

Results

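The genes described here are 33 genes of the cell cycle, measured by RNA-sequencing in whole hearts and in aortic endothelial cells (ECs) of mice with and without Hmox2. They were taken by name from 2 sets. The first holds 24 mitotic genes: Mki67, Top2a, Cdk1, Ccna2, Ccnb1, Ccnb2, Aurka, Aurkb, Bub1, Bub1b, Plk1, Kif11, Kif20a, Kif23, Cenpe, Cenpf, Tpx2, Prc1, Nusap1, Birc5, Ube2c, Cdc20, Racgap1 and Anln. The second holds 9 DNA replication genes: Rrm2, Mcm2, Mcm3, Mcm4, Mcm5, Mcm6, Mcm7, Pcna and Tyms. All 33 were found among the 36109 genes with a matched transcript. The 13 libraries came from ECs of Hmox2+/+ mice (EC WT, n = 3), ECs of Hmox2-/- mice (EC KO, n = 3), hearts of Hmox2+/+ mice (heart WT, n = 4) and hearts of Hmox2-/- mice (heart KO, n = 3). All mice breathed room air. Per the study's methods, the Hmox2+/+ mice were wildtype littermates of the Hmox2-/- mice. Hmox2 encodes heme oxygenase 2, an enzyme that breaks down heme. The labels do not say that each library came from a different mouse, so p-values measure the spread between these libraries, which may be partly technical.

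A dividing cell first copies its DNA and then separates the copies. In replication, the 6 proteins encoded by Mcm2 to Mcm7 form the ring-shaped helicase that is loaded on DNA before synthesis starts, PCNA is the sliding clamp that holds the polymerases on DNA, and RRM2 and TYMS supply deoxynucleotides. In mitosis, CDK1 bound to A- and B-type cyclins drives entry, Aurora and Polo-like kinases and kinesins build the spindle, BUB1 and CENPE act at the kinetochore, and PRC1, RACGAP1 and ANLN serve cytokinesis. Most ECs of a healthy adult aorta and most adult cardiomyocytes are out of the cycle, and PCNA also serves DNA repair.

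Estimated counts summed to 7268626 in heart WT 1 and to between 26067147 and 31619776 in the other libraries. Hmox2 was lower in Hmox2-/- ECs (log2 fold change -2.34, SE 0.13, edgeR adjusted p = 0.000131) and in Hmox2-/- hearts (-2.30, SE 0.11, adjusted p = 1.58e-07). The libraries labelled as aortic ECs held endothelial transcripts (10 markers, summed TPM 908.3 to 1744 in EC WT and 1930 to 2122 in EC KO) but also transcripts of red cells (7 markers, 3982 to 9633 TPM), adipocytes (6 markers, 2794 to 4052 TPM), fibroblasts (8 markers, 1302 to 3718 TPM), smooth muscle (8 markers, 604.7 to 3189 TPM) and macrophages (10 markers, 340.0 to 1235 TPM). Ddx3y, a Y-linked gene, was at 0.977 and 0.967 CPM (counts scaled to the size of the library) in EC KO 2 and EC KO 3 and at 39.96 to 91.5 CPM in the other 11 libraries. In such bulk samples, fewer cells of a type and less RNA per cell cannot be told apart.

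The promoters of both sets are shown first, because the text turns on a difference between mitotic and replication genes. RefSeq windows of the GRCm38.p6 build, from 250 bases before to 50 bases after the gene start, were matched for 28 of the 33 genes (30 windows). No window was matched for Ccna2, Kif20a, Aurkb, Mcm4 and Tpx2. Each window was searched on both strands for 3 motifs: the cell cycle genes homology region or CHR (TTTGAA), the CCAAT box (CCAAT) and an E2F site (TTTCCCGC, TTTCGCGC, TTTGCCGC or TTTGGCGC). The following 4 windows, in which capitals mark every match, belong to the 2 mitotic genes and the replication gene that passed the test in heart, and to Ccnb2, a mitotic cyclin with 2 CHR and 3 CCAAT matches. Cenpf lies at chr1:189688037-189688336, Mki67 at chr7:135716330-135716629, Ccnb2 at chr9:70421505-70421804 and Mcm6 at chr1:128359656-128359955, all on the minus strand.
Cenpf: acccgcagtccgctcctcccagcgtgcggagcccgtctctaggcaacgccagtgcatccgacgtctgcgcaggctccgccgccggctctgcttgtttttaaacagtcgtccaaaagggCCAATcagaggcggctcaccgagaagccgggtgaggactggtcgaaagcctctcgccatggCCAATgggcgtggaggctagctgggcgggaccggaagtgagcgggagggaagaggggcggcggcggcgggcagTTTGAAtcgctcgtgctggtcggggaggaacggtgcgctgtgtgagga
Mki67: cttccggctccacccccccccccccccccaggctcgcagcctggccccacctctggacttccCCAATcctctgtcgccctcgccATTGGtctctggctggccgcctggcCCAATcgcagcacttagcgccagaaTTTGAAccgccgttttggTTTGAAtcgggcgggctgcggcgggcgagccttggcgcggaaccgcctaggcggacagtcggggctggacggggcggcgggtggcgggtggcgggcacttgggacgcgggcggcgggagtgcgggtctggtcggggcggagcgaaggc
Ccnb2: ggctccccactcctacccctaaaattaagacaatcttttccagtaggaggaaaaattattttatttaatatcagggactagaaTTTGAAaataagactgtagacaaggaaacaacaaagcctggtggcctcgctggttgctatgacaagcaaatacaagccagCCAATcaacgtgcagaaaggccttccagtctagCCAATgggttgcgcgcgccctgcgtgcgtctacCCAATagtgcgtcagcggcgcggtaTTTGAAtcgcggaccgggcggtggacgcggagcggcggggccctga
Mcm6: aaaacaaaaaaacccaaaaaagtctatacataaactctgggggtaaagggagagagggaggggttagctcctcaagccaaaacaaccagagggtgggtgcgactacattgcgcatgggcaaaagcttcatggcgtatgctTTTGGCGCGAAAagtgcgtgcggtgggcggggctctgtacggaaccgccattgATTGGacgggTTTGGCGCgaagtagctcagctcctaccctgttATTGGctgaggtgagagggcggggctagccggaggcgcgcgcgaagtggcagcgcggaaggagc

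A CHR match was present in 16 of 21 mitotic windows (76.2%), in 1 of 9 replication windows (11.1%) and in 17.9% of all 32851 promoter windows. CCAAT was found in 85.7% of mitotic windows, 88.9% of replication windows and 37.4% of all windows. The E2F letters stood in 1 mitotic window (4.76%), in 4 of 9 replication windows (44.4%) and in 2.26% of all windows. Cenpf held 1 CHR and 2 CCAAT matches, and Mki67 held 2 CHR and 3 CCAAT matches. Mcm6 held no CHR match, 2 CCAAT matches and 3 E2F matches, of which 2 overlap on opposite strands. These matches are a description of the letters and not evidence of binding.

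TPM values (a transcript's share of the library after division by its length) gave the order of the genes. In EC WT, Pcna was highest (46.9 ± 7.79 TPM, SD, n = 3), followed by Mcm7 (13.04 ± 4.56) and Mcm6 (7.29 ± 2.93). The 9 replication genes had mean levels of 3.73 to 46.9 TPM (median 6.75), and the 24 mitotic genes had mean levels of 0.472 to 6.83 TPM (median 2.36). Top2a, the topoisomerase that untangles chromosomes, was the highest mitotic gene in EC WT (6.83 ± 7.60 TPM), with an SD larger than its mean. Below Pcna, no gene of EC WT differed from its neighbour in this order by more than the sum of their SDs.

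In hearts the order was different. Pcna was again highest (17.4 ± 1.57 TPM in heart WT, n = 4), but Cenpf was second (6.76 ± 0.708 TPM), above all MCM genes and by more than the sum of the SDs above Mcm7, the third (2.496 TPM). The other 23 mitotic genes had mean levels of 0.0665 to 0.927 TPM in heart WT, and the replication genes other than Pcna had 0.720 to 2.496 TPM. Cenpf, which encodes a large kinetochore protein that also binds microtubules, held 79.5% to 82.1% of all mitotic counts in the heart WT libraries, against 1.85% to 3.87% in EC WT. In heart KO its share was 61.4% to 69.6%. Counts are not divided by length, and Cenpf averaged 9945 bases against a median of 2588 over the mitotic genes. In TPM, Cenpf had 6.76 of a mean mitotic sum of 14.17 in heart WT. The remaining 23 mitotic genes together had 106 to 542 counts per heart WT library and 412 to 416 per heart KO library. The transcript Cenpf-204, of 11130 bases, held at least 94.1% of the Cenpf counts in each heart library.

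**Figure D1:**
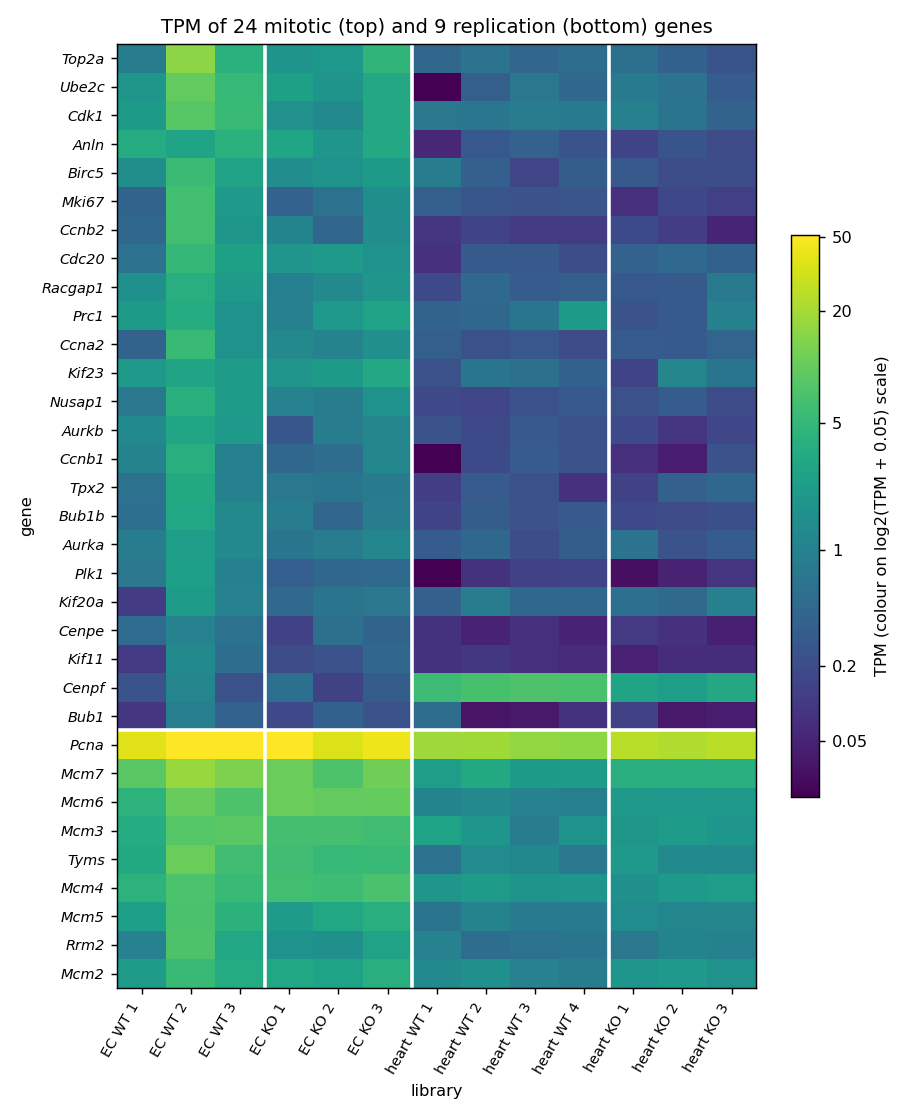
TPM of each gene (vertical axis) in each of the 13 libraries (horizontal axis), coloured on a log2(TPM + 0.05) scale, with white lines between groups and between the 24 mitotic and 9 replication genes. EC WT 2 is the brightest EC column for most mitotic genes, and Cenpf is the mitotic gene with the highest level in hearts, at 5.79 to 7.46 TPM in heart WT and 2.32 to 3.25 TPM in heart KO.

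Compared to EC WT, 31 of the 33 genes passed the test in heart WT (adjusted p of at most 0.05), where 65.8% of all 15938 genes tested did (32.1% higher and 33.7% lower). Of these, 30 were lower in heart and 1, Cenpf, was higher. The median log2 difference was -2.13 over the mitotic genes and -1.14 over the replication genes, beside -0.05 over all genes. Cenpf differed by 4.82 (SE 0.50, edgeR adjusted p = 1.01e-06) in the fit of both tissues together. It had 66.9, 69.0, 80.5 and 80.4 CPM in heart WT 1 to 4 and 1.66, 9.66 and 1.85 CPM in EC WT 1 to 3. These CPM were scaled within each tissue, so their ratio between tissues is not the fitted difference. Ccnb2, the partner of CDK1 at mitotic entry, had the largest difference in the other direction (-3.43, SE 0.72, adjusted p = 0.000705). Kif20a and Kif23, kinesins of the central spindle, did not pass. Without EC WT 2, 22 genes passed. RNA was extracted in different ways from ECs and hearts, so tissue and extraction cannot be told apart in this comparison.

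In ECs, the first question was whether loss of Hmox2 went with a different level of mitotic or replication genes. None of the 24 mitotic genes and none of the 9 replication genes passed edgeR's quasi-likelihood test in EC KO compared to EC WT, while 18.1% of all 15301 genes tested did (10% higher and 8.06% lower). At an unadjusted p under 0.05 there was 1 mitotic gene (Plk1, the Polo-like kinase, -1.47, SE 0.57, adjusted p = 0.109) and 1 replication gene (Mcm6), and DESeq2 also called none. Of the mitotic genes, 23 of 24 had a negative fold change, with a median of -1.07 and a range from -1.75 (Mki67) to 0.14 (Birc5). The median SE of the mitotic genes was 0.57, compared to 0.19 for all genes.

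The spread between the EC WT libraries was of the same size as this difference. Mki67, the proliferation antigen, had 4.65, 53.8 and 17.5 CPM in EC WT 1 to 3 and 3.47, 6.47 and 12.7 CPM in EC KO 1 to 3. Top2a had 5.02, 44.3 and 13.2 CPM in EC WT and 4.78, 7.32 and 12.6 CPM in EC KO. Ccnb2 had 0.701, 7.42 and 2.23 CPM in EC WT and 1.35, 0.651 and 1.77 CPM in EC KO. For all 3 genes EC WT 2 was far above the rest, EC WT 1 was as low as the EC KO libraries, and the groups overlapped. Plk1 had 0.997, 4.35 and 1.73 CPM in EC WT and 0.638, 1.03 and 0.883 CPM in EC KO, and these groups overlapped too.

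EC WT 2 was the highest EC WT library for 23 of 24 mitotic genes and for 9 of 9 replication genes, and EC WT 1 was the lowest for 23 and 7. The exception among the mitotic genes was Anln, an actin-binding protein of the cleavage furrow, at 12.7, 8.79 and 11.0 CPM in EC WT and 11.1, 6.25 and 7.03 CPM in EC KO. The ratio of EC WT 2 to EC WT 1 had a median of 4.31 over the mitotic genes, with 18.2 for Kif20a, which shares 51.5% of its 31-base words with the transcripts of other genes, and 11.6 for Mki67 at the top, and a median of 1.80 over the replication genes, with 5.46 for Rrm2 and 1.04 for Pcna at the ends. Without EC WT 2, the median mitotic fold change was -0.21 instead of -1.07, and no mitotic gene passed. Aurka, the spindle pole kinase, was the single mitotic gene whose EC groups did not overlap (1.70, 3.31 and 1.79 CPM in EC WT and 1.06, 1.57 and 1.51 in EC KO), where 18.7% of all genes had EC KO below EC WT. Of its words, 36.0% are shared, with Fam210b among others, so its counts are less certain.

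**Figure D2:**
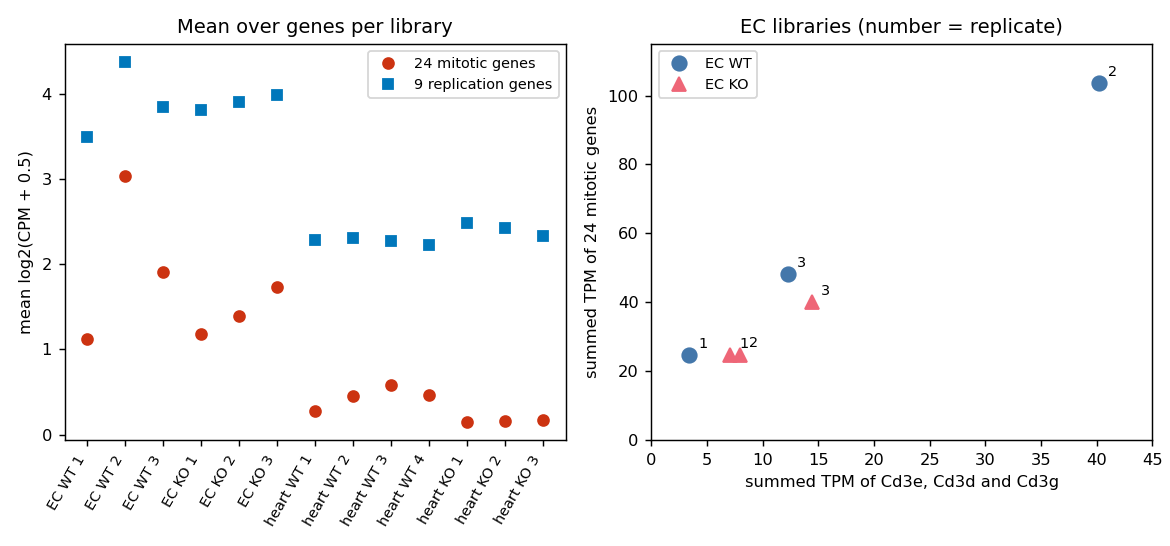
Left, the mean log2(CPM + 0.5) of the 24 mitotic genes (circles) and 9 replication genes (squares) in each library. CPM were scaled within each tissue. Right, the summed TPM of the mitotic genes against the summed TPM of the T cell genes Cd3e, Cd3d and Cd3g in the 6 EC libraries, where EC WT 2 stands apart at 103.7 and 40.2 TPM.

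Transcripts of lymphocytes and of cardiomyocytes had the same order as the mitotic genes over EC WT 1 to 3, and those of other cell types did not. The summed TPM of the mitotic genes was 24.7, 103.7 and 48.2 in EC WT 1 to 3 and 24.6, 24.8 and 40.1 in EC KO 1 to 3. Beside it, 9 lymphocyte markers, all of which passed the count filter, summed to 9.29, 53.1 and 25.4 TPM in EC WT and to 14.1, 11.9 and 40.4 TPM in EC KO, and the Cd3 genes to 3.38, 40.2 and 12.2 TPM and to 7.11, 7.98 and 14.4 TPM. The 10 cardiomyocyte markers summed to 117.1, 681.9 and 264.1 TPM in EC WT and 10.7 to 13.5 TPM in EC KO. In EC WT 1 to 3, 9 markers of granulocyte precursors summed to 35.1, 173.5 and 313.6 TPM, 10 macrophage markers to 340.0, 559.2 and 638.5 TPM, 8 smooth muscle markers to 3031, 1997 and 3189 TPM and 8 fibroblast markers to 1304, 1302 and 2456 TPM. The adipocyte sum was 3280, 4052 and 2794 TPM, the erythroid sum 4730, 9409 and 9633 TPM and the endothelial sum 908.3, 1193 and 1744 TPM. EC WT 2 was thus highest in the lymphocyte, cardiomyocyte and adipocyte sums. It was in the middle of the granulocyte precursor, macrophage, erythroid and endothelial sums and lowest in the smooth muscle and fibroblast sums. The part of these cells in the mitotic values was not tested.

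The replication genes of ECs were closer to 0 and varied less, with a median fold change of -0.09 (range -0.93 for Rrm2 to 0.54 for Mcm6) and a median SE of 0.22. Mcm6 had 13.7, 24.8 and 17.5 CPM in EC WT and 27.5, 28.7 and 25.6 CPM in EC KO, so each EC KO library was above each EC WT library. Its fold change of 0.54 (SE 0.21) had an adjusted p of 0.103. Without EC WT 2 it was 0.80 (SE 0.15) and passed with an adjusted p of 0.0238, so that this call rests on the removal of 1 library. Tyms, thymidylate synthase, had 4.84, 9.96 and 6.89 CPM in EC WT and 10.4, 10.6 and 10.4 CPM in EC KO (0.53, SE 0.26, adjusted p = 0.182), also without overlap. Non-overlap with EC KO above was seen in 2 of 9 replication genes and in 22% of all genes.

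Rrm2, a subunit of ribonucleotide reductase, followed the mitotic genes more than the MCM genes, at 2.36, 12.9 and 5.19 CPM in EC WT and 3.05, 3.06 and 4.60 CPM in EC KO. Pcna was the steadiest, at 57.7, 60.1 and 57.0 CPM in EC WT and 61.1, 50.9 and 52.2 CPM in EC KO (-0.09, SE 0.11, adjusted p = 0.593). When only the libraries with Ddx3y counts were kept (EC KO 1 against 3 EC WT libraries, with the spread of EC WT assumed for the lone library), no member passed and 0.299% of all genes did.

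In hearts, 28 of the 33 genes had enough counts to be tested. Ccnb1, Ccnb2, Aurkb, Bub1 and Plk1 had at most 17 counts in any heart library and were not tested. Of the 19 mitotic genes tested, 2 were lower in heart KO, Cenpf and Mki67, and of the 9 replication genes 1 was higher, Mcm6. These 3 of 28 compare with 33.4% of all 13816 genes tested (17.2% higher and 16.2% lower). Cenpf and Mki67 also had an absolute change of at least 1 on the log2 scale, as 4.05% of all genes did downwards and 2.66% upwards. The median fold change was -0.55 over the 19 mitotic genes, of which 15 were negative, and 0.16 over the replication genes, of which 7 were positive, beside -0.01 over all genes. Without heart WT 2 or heart WT 3 the mitotic median was -0.35 in each case.

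Cenpf, the member with the smallest adjusted p in heart, had 66.9, 69.0, 80.5 and 80.4 CPM in heart WT 1 to 4 and 19.3, 21.5 and 28.2 CPM in heart KO 1 to 3, from 450 to 2272 and from 657 to 944 estimated counts. Every heart KO library was below every heart WT library. The log2 fold change was -1.69 (SE 0.14, edgeR adjusted p = 1.7e-05), 3.23-fold lower, and it passed in all 14 alternative settings (-1.87 to -1.16). In TPM the means were 6.76 ± 0.71 in heart WT and 2.80 ± 0.47 in heart KO. In ECs, Cenpf had at most 289 counts, and its fold change of -1.19 (SE 0.71) did not pass, and was 0.13 without EC WT 2. The cardiomyocyte markers, summed, were 34320 to 43820 TPM in heart WT and 54650 to 62870 TPM in heart KO, although 3 of the 10 passed the test as higher and 1 as lower.

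Mki67 had 3.87, 2.63, 2.93 and 2.94 CPM in heart WT and 0.588, 1.57 and 1.11 CPM in heart KO. The groups did not overlap, although these values rest on 26, 76, 77 and 83 counts and on 20, 52 and 37 counts. Its fold change was -1.47 (SE 0.31, adjusted p = 0.00519), and it also passed in all 14 alternative settings, with adjusted p up to 0.0376. Top2a had 2.38, 1.77, 2.17 and 1.59 CPM in heart WT and 1.47, 1.12 and 0.927 CPM in heart KO (-0.71, SE 0.26, adjusted p = 0.0569). It was below heart WT in every heart KO library and missed the threshold. Kif11, the motor that pushes spindle poles apart, and Birc5, an inhibitor of apoptosis that also serves the chromosomal passenger complex, did not overlap either, with adjusted p of 0.231 and 0.0936. This made 5 of 19 mitotic genes with heart KO below heart WT, where 19.8% of all genes were. Cdc20, the activator of the anaphase-promoting complex, which shares 25.9% of its words with other genes, had the largest positive value (0.43, SE 0.39, adjusted p = 0.421).

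**Figure D3:**
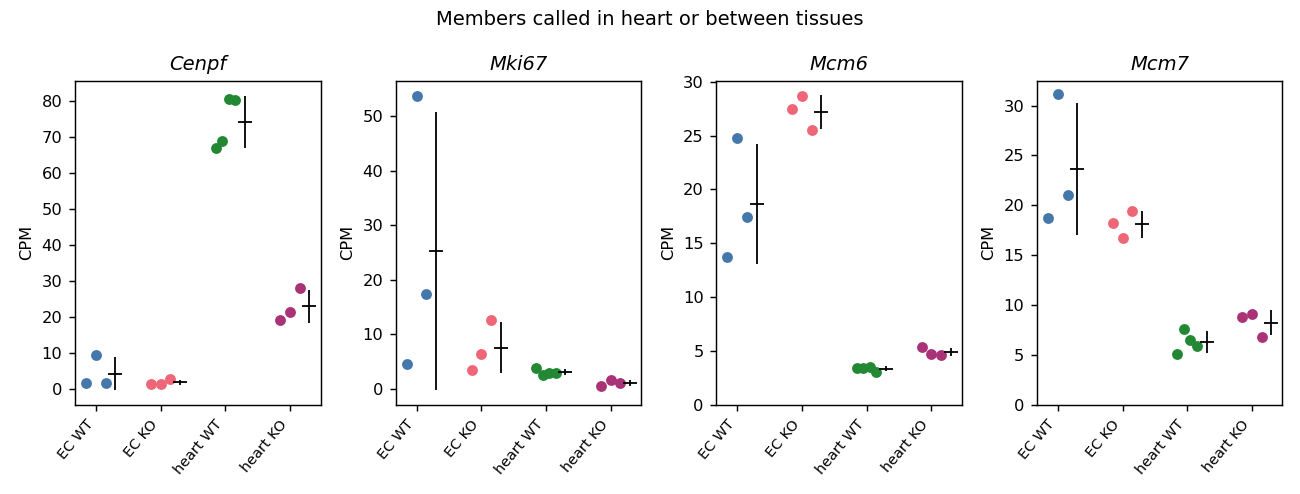
CPM of Cenpf, Mki67, Mcm6 and Mcm7 in each library, by group, with the mean and SD in black beside the points. CPM were scaled within each tissue. Heart KO lies below heart WT for Cenpf and Mki67 and above it for Mcm6, and in ECs the highest Cenpf, Mki67 and Mcm7 points are EC WT 2.

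Transcript length moved with the heart comparison. Over all genes, the median log2 fold change in heart was 0.56 for transcripts under 1 kb, 0.27 from 1 to 2 kb, 0.00 from 2 to 4 kb, -0.24 from 4 to 8 kb and -0.55 over 8 kb. The Spearman correlation of fold change with length was -0.459 over 13816 genes in heart and 0.095 over 15301 genes in ECs, given as a description since all genes share the same libraries. Cenpf (mean length 9945 bases) and Mki67 (10152 bases) belong to the longest class, in which 15 and 27 of 468 genes had a lower fold change. In a fit with an offset for length and GC content, chosen after the data were seen, Cenpf was at -1.16 (adjusted p = 4e-06), Mki67 at -1.04 (adjusted p = 0.0167) and Mcm6 at 0.52 (adjusted p = 0.0218), all still past the threshold. Kif23 (-1.19, adjusted p = 0.059 without the offset) passed as well in that fit, at -1.38 (adjusted p = 0.0401), but was at 0.10 (adjusted p = 0.921) with counts from length-scaled TPM, so its direction depended on how length was treated. The replication median fell to 0.02 with the offset, and the mitotic median was -0.40.

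**Figure D4:**
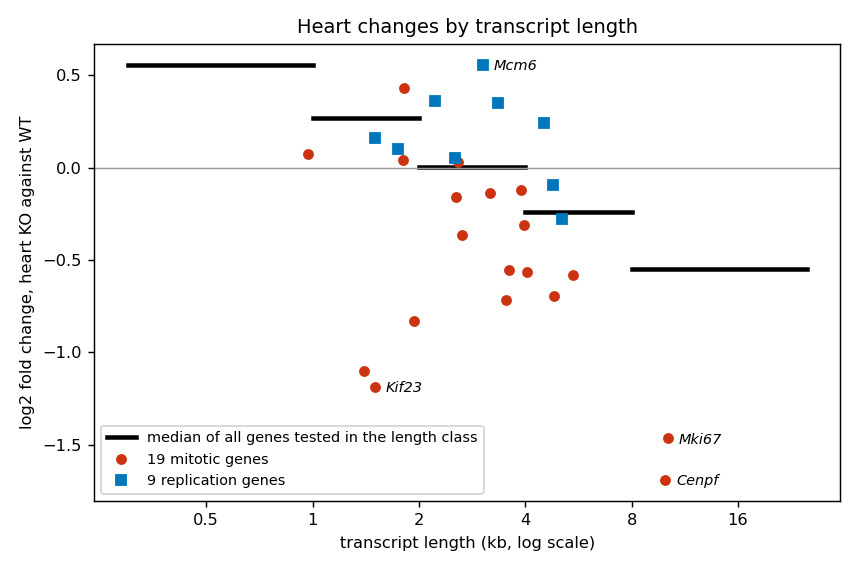
Log2 fold change in heart KO against heart WT of the 19 mitotic genes (circles) and 9 replication genes (squares) by transcript length on a log scale, with the median of all genes tested in each length class as a black bar. The bars step down from 0.56 to -0.55, Cenpf and Mki67 lie below the bar of the longest class, and Mcm6 lies above the bar of its class.

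Mcm6, a subunit of the replicative helicase, had 3.42, 3.43, 3.50 and 3.01 CPM in heart WT and 5.32, 4.75 and 4.64 CPM in heart KO, without overlap. These values rest on 23 to 99 counts in heart WT and 155 to 181 in heart KO. The fold change was 0.56 (SE 0.15, edgeR adjusted p = 0.018), 1.47-fold higher. The call was lost without heart WT 4 (adjusted p = 0.0578) and without heart KO 1 (adjusted p = 0.0546). None of the other helicase subunits passed. Mcm7 was at 0.36 (SE 0.17, adjusted p = 0.113), Mcm2 at 0.35 (SE 0.19, adjusted p = 0.166), Mcm5 at 0.24 (SE 0.21, adjusted p = 0.393), Mcm3 at -0.09 (SE 0.20, adjusted p = 0.749) and Mcm4 at -0.28 (SE 0.14, adjusted p = 0.141). With the length and GC offset, Mcm7 was at 0.22, Mcm2 at 0.33, Mcm5 at 0.33, Mcm3 at 0.015 and Mcm4 at -0.00154. The value of Mcm3 thus changed sign, and the negative value of Mcm4 shrank.

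Mcm4 had 6.69, 7.10, 7.20 and 7.15 CPM in heart WT and 5.08, 5.99 and 6.43 CPM in heart KO, so that heart KO was below heart WT in each library on this scale. In TPM its means were 1.91 ± 0.217 in heart WT and 1.99 ± 0.357 in heart KO, with overlap. Pcna had 26.5, 24.6, 26.4 and 23.8 CPM in heart WT and 30.4, 26.8 and 27.4 CPM in heart KO (0.16, SE 0.10, adjusted p = 0.224, and 0.0044 with the length and GC offset), and it shares 23.3% of its words with other transcripts, including Pcna-ps2. Its heart groups did not overlap, which made 2 of 9 replication genes with heart KO above, where 20.6% of all genes were. The summed TPM of markers was also higher in heart KO for macrophages, endothelium, red cells, smooth muscle, fibroblasts and cardiomyocytes alike. The sum of 10 macrophage markers was 97.5 to 139.8 TPM in heart WT and 235.3 to 377.9 TPM in heart KO, the endothelial sum 152.0 to 220.8 and 251.7 to 273.6 TPM, and the erythroid sum 340.8 to 779.2 and 2416 to 3506 TPM. The smooth muscle sum was 485.5 to 681 and 871.6 to 1015 TPM, and the fibroblast sum 236.4 to 284.4 and 347.1 to 418 TPM. Of the single markers tested, 5 of 10 macrophage and 5 of 5 erythroid markers passed as higher and none as lower, while 3 of 10 endothelial markers passed as higher and 1 as lower. Of 8 smooth muscle markers 4 passed as higher and 1 as lower, and of 8 fibroblast markers 1 passed as higher and 2 as lower. The part of these cells in the replication values was not tested.

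The mitotic genes were then set against the replication genes within each library. The mean log2(CPM + 0.5) of the replication genes exceeded that of the mitotic genes by 2.37, 1.34 and 1.94 in EC WT and by 2.63, 2.51 and 2.26 in EC KO, with 1 EC WT library inside the EC KO range. In hearts the excess was 2.01, 1.85, 1.69 and 1.77 in heart WT and 2.34, 2.27 and 2.16 in heart KO, without overlap. Without Cenpf it was 1.94 to 2.26 in heart WT and 2.37 to 2.52 in heart KO. On this CPM scale the mitotic mean was 0.44 ± 0.13 in heart WT and 0.16 ± 0.01 in heart KO, and the replication mean was 2.27 ± 0.03 and 2.42 ± 0.08. Without Cenpf the mitotic mean was 0.19 in heart WT (0.020 to 0.334) and -0.03 in heart KO (-0.034 to -0.030). That mean includes Ccnb1, Ccnb2, Aurkb, Bub1 and Plk1, which were under the count filter in hearts. Its lowest heart WT value came from heart WT 1, with 106 counts over these mitotic genes. The summed TPM of the mitotic genes without Cenpf was 7.41 ± 1.04 in heart WT and 7.21 ± 0.43 in heart KO. With Cenpf it was 11.74 to 15.4 TPM in heart WT and 9.319 to 10.95 TPM in heart KO, without overlap. The replication genes summed to 28.4 ± 3.25 and 39.7 ± 1.13 TPM, of which Pcna had 17.39 and 24.03. With Cenpf, both sets thus differed on either measure. Without it, the mitotic genes did not overlap in mean log2 CPM, by a narrow margin at low counts, but overlapped in summed TPM. The first measure is a mean of logs and the second a plain sum, so the part of the scale alone was not tested. No test is given for these means, since the members were chosen as a list.

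**Figure D5:**
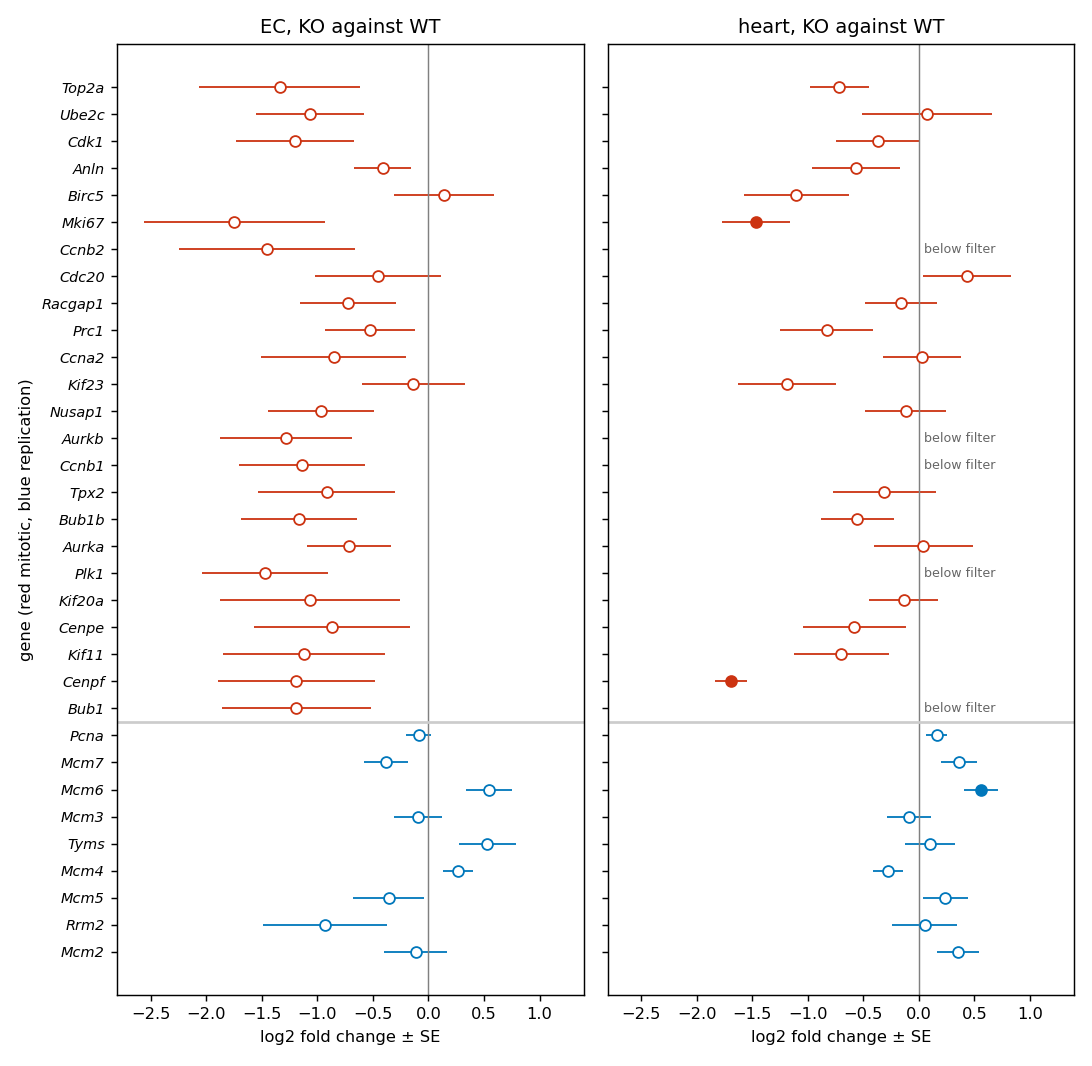
Log2 fold change with its SE for each mitotic gene (red, top) and replication gene (blue, bottom) in ECs (left) and hearts (right), with filled points for genes that passed the test. In ECs the mitotic genes spread from -1.75 to 0.14 with wide errors and none is filled, and in hearts Mki67, Cenpf and Mcm6 are filled.

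Whether the change differed between heart and ECs was tested with the interaction of tissue and genotype. Of the 33 genes 1 passed, Mcm7, compared with 28.8% of 15938 genes. Mcm7 had 18.7, 31.2 and 21.0 CPM in EC WT, 18.2, 16.7 and 19.4 CPM in EC KO, 5.06, 7.62, 6.51 and 5.91 CPM in heart WT and 8.81, 9.07 and 6.76 CPM in heart KO. Its EC fold change was -0.38 (SE 0.20) and its heart fold change 0.36 (SE 0.17), neither past the threshold alone, and the difference was 0.79 (SE 0.27, edgeR adjusted p = 0.041). The call held in 7 of 21 alternative settings and was lost, among others, without EC WT 2 (0.54, adjusted p = 0.104), in which Birc5, Mcm4 and Cenpf passed instead. Mcm7 shares 36.1% of its words with other genes, including Gm5487, Cops6 and Ap4m1. For Cenpf the interaction was -0.45 (SE 0.68, adjusted p = 0.649), for Mki67 0.33 (SE 0.95, adjusted p = 0.825) and for Mcm6 0.05 (SE 0.25, adjusted p = 0.90). Without EC WT 2 these were -1.77 (adjusted p = 0.00294) for Cenpf, -0.86 (adjusted p = 0.418) for Mki67 and -0.20 (adjusted p = 0.486) for Mcm6. For Cenpf the outcome of the test between tissues thus turned on that library. Mki67 and Mcm6 passed in none of the 21 alternative settings, although their values changed sign without EC WT 2.

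Further genes of the same processes were counted in 4 lists. In ECs, 2 of 44 other mitotic genes were higher and 1 lower, 1 of 46 other replication genes was higher and 3 lower, 1 of 16 genes of G1 control was lower, and 1 of 17 tested brakes of the cycle was lower. In hearts, 1 of 28 tested other mitotic genes was higher and 3 lower, 4 of 44 replication genes were higher and 2 lower, 1 of 14 G1 genes was higher and 2 lower, and 2 of 17 brakes were higher and 4 lower. These counts stand beside 18.1% of all genes in ECs and 33.4% in hearts. The medians over these lists were between -0.57 and -0.15 in ECs and between -0.21 and 0.20 in hearts.

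Gmnn encodes geminin, which blocks reloading of the MCM helicase on DNA that has been copied. It was lower in EC KO, with 19.8, 15.6 and 13.9 CPM in EC WT and 5.81, 7.09 and 4.45 CPM in EC KO (-1.51, SE 0.22, adjusted p = 0.0068). In hearts it was higher, with 23.8, 22.8, 22.7 and 23.4 CPM in heart WT and 42.1, 37.9 and 34.9 CPM in heart KO (0.73, SE 0.10, adjusted p = 0.000516). Neither pair of groups overlapped, and the interaction was 2.27 (SE 0.22, adjusted p = 2.85e-05). With the length and GC offset the values were -1.23 (adjusted p = 0.0121) and 0.37 (adjusted p = 0.0039).

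Cdkn1a, which encodes the cyclin-dependent kinase inhibitor p21, was higher in heart KO, with 14.1, 10.3, 12.6 and 12.9 CPM in heart WT and 38.96, 28.4 and 37.2 CPM in heart KO (1.499, SE 0.14, adjusted p = 4.1e-05). In ECs its groups overlapped (0.13, SE 0.29, adjusted p = 0.768), and the interaction was 1.404 (SE 0.33, adjusted p = 0.00688). Btg2, an antiproliferative gene, was lower in heart KO (-1.15, SE 0.24, adjusted p = 0.00518), at 75.3, 31.8, 37.5 and 44.5 CPM in heart WT and 22.4, 18.7 and 21.3 CPM in heart KO. Myc, the growth-promoting transcription factor, was lower in EC KO (-1.09, SE 0.22, adjusted p = 0.0177), at 13, 12.1 and 12.9 CPM in EC WT and 5.35, 4.64 and 7.87 CPM in EC KO.

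Pttg1 encodes securin, which holds separase inactive until anaphase. It had 5.65, 3.78 and 2.81 CPM in EC WT and 52.6, 41.6 and 36.6 CPM in EC KO, and 1.30 to 1.63 CPM in heart WT against 47.9 to 67.2 CPM in heart KO. The groups were far apart in both tissues, and the interaction was 1.95 (SE 0.31, adjusted p = 0.000826). Kif18a, a kinesin that limits chromosome movement, was higher in EC KO (1.85, SE 0.28, adjusted p = 0.00778) but did not pass with the length and GC offset (0.68, adjusted p = 0.107). Sgo2a, a protector of centromeric cohesion that shares 34.1% of its words with other genes, was lower in EC KO (-1.21, SE 0.33, adjusted p = 0.0422). It was also lower in heart KO (-0.68, SE 0.16, adjusted p = 0.00926), but did not pass there with the length and GC offset (-0.24, adjusted p = 0.139). In hearts, the condensin subunit gene Ncapg2 was lower (-1.21, SE 0.24, adjusted p = 0.0038), and Pold2, a subunit of DNA polymerase delta, was higher (1.02, SE 0.15, adjusted p = 0.000928). With the length and GC offset both still passed but were smaller, at -0.90 (adjusted p = 0.0104) for Ncapg2 and 0.77 (adjusted p = 0.000503) for Pold2.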

How the data were processed

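RNA from aortic ECs and from frozen whole hearts was sequenced from oligo-dT directional libraries. Per the study's methods, EC RNA was flushed out of the aorta with TRI Reagent, and heart RNA was extracted from pulverized tissue with a different kit. The authors quantified transcripts with kallisto 0.44.0 and deposited estimated counts and TPM per transcript for each library. The study's methods name a GENCODE index of the GRCm39 build, whereas the submitters' processing notes list mm10 and GRCh38.p13. Transcript identifiers without version were matched to GENCODE M39 (115140 of 118489, 97.2%, leaving at most 1.01% of counts unmatched), and the deposited estimated counts and TPM were summed per gene. Summed counts were rounded and tested with edgeR 4.0.16 in R 4.3.3 (filterByExpr with a minimum count of 10, TMM, quasi-likelihood F-test, Benjamini-Hochberg over all genes tested). A gene passed at an adjusted p of at most 0.05. ECs and hearts were fitted apart, and the interaction and the comparison of tissues over all 13 libraries. CPM, except those of Ddx3y, used TMM library sizes from each tissue's own fit and are not on a common scale between tissues. Biological coefficients of variation came to 0.241 (ECs) and 0.149 (hearts). Libraries were grouped by their genotype and tissue labels.

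Alternatives were DESeq2 1.42.0, its size factors, upper-quartile scaling, no count filter, counts from length-scaled TPM, the replicate number as a block, leaving out each library, keeping only libraries with Ddx3y counts, and a minimum change of 1 on the log2 scale. An offset for length and GC content was added after the data were seen. All members were accounted for. Members that passed in either tissue or in the interaction are given by library, and from the other lists the genes that passed and changed by 1 or more on the log2 scale. The members and lists were chosen with earlier results of these data known. Shared sequence is the percent of a gene's 31-base words present in transcripts of other genes. The edgeR procedure was tested on simulated data. The deposited effective lengths were used only to scale counts. The SEs hold counting error and the spread between libraries together.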

Additional observations from a re-analysis of the deposited data

Results flagged for a closer look

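The difference between the heart and the EC change of Mcm7 was 0.79 on the log2 scale (SE 0.27, edgeR adjusted p = 0.041), from 0.36 in heart and -0.38 in ECs. It was picked out because the interaction itself passed the test.

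Among the 4 heart WT libraries, heart WT 4 stood apart for Mcm6, at 3.01 CPM compared to 3.42 to 3.50 CPM in the others. The gap was 0.840 of the group's range, above Dixon's limit for 4 samples. This was 1 of 33 genes examined in heart WT, and chance alone picks out about 1 in 20.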

How the results depend on the processing

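Cenpf and Mki67 in heart passed in all 14 alternatives. No mitotic gene passed in ECs in any alternative. The replication genes that passed in ECs ranged from 0 to 1 when 1 library was left out, with Mcm6 passing without EC WT 2, and the mitotic median in ECs ranged from -1.43 to -0.21, the latter without EC WT 2. In hearts, leaving out 1 library gave 0 to 2 replication genes, none without heart WT 4 or heart KO 1 and 2 (Mcm6 and Mcm7) without heart KO 3, and none reached an absolute log2 fold change of 1. The heart mitotic median ranged from -0.58 to -0.35 over the left-out libraries, and was -0.32 with counts from length-scaled TPM and -0.40 with the length and GC offset, under which the replication median was 0.015. The interaction gave 0 to 3 genes over the left-out libraries and 0 with length-scaled TPM, with the length and GC offset, with libraries holding Ddx3y counts and with an absolute value of at least 1. Under upper-quartile scaling Mcm4 passed in place of Mcm7 (adjusted p = 0.0727). The causes were not tested. Over all genes, leaving out 1 library gave 4.07% to 22.9% called in ECs and 20.5% to 40.3% in hearts, beside 18.1% and 33.4%. For the interaction, the split of 2579 higher and 2017 lower genes became 2115 and 2485 under upper-quartile scaling, which moved the median of all genes from 0.03 to -0.07 there and from -0.05 to -0.19 between tissues.

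Replicate numbers were shared between groups, but the labels do not tie them to mice, and same-numbered libraries correlated at -0.09 to 0.24 between genotypes, so the numbers were not taken as pairs. With the replicate number as a block, Mcm6 in heart did not pass (0.49, adjusted p = 0.0878), leaving 0 replication genes there, the interaction gave 0 genes (Mcm7 0.73, adjusted p = 0.0637), and 2 mitotic genes passed in heart and 0 in ECs. The blocked fit called 17.8% of all genes in ECs and 21% in hearts.

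In hearts, 5 of 24 mitotic genes were under the count filter, at depths like those of the EC libraries except in heart WT 1, where the 23 mitotic genes other than Cenpf had 106 counts in total.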
